A study of Mus musculus with 12 samples.

Results

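Axon guidance ligands and receptors are the genes of the semaphorin, plexin, neuropilin, Slit, Robo, netrin, Dcc, Unc5, ephrin and Eph families. They were chosen by gene symbol and by a minimum of 10 counts in at least 3 of 12 libraries. Of 70 symbols with a matching name, 68 met the minimum, out of 23183 symbols in the tables. Just inside the minimum were Efna4, whose third-highest count was 11, and Epha2 with 15. Just outside it were Epha1 with 3 and the noncoding symbol Plxna4os1 with 7. All 68 genes passed the filter on low counts and were tested. They comprised 35 ligands and 33 receptors.

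Guidance cues are secreted or membrane-bound proteins that attract or repel growing axons, and they keep acting on dendrites, spines and synapses in the adult hippocampus. Semaphorins signal through plexins, and most secreted semaphorins first bind a neuropilin. Slits signal through Robo receptors, and netrins attract axons through Dcc and repel them through Unc5 receptors. Ephrins are anchored to the cell surface and bind Eph receptor tyrosine kinases on a neighbouring cell, with signalling in both directions.

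RNA was sequenced from the ventral hippocampus, a region tied to emotional behaviour, of wild-type male C57BL/6J mice that were 8 weeks old when naive. There were 4 groups with 3 mice in each. Group C had no restraint and no wheel, and SS mice were restrained for 2 h a day on 14 days and labelled stress-susceptible. SES and SER mice were labelled stress-susceptible and then had a running wheel, and the labels class SES as effective and SER as ineffective responders to running. Running lasted 14 days by the sample titles and 4 weeks by the protocol. SS, SES and SER were therefore groups sorted on an outcome, and the criterion for sorting is not given in the sources used here. The tissue was bulk, so fewer cells of a type and less RNA per cell cannot be told apart in any value below.

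Library totals ran from 9323607 to 15707516 counts. Hippocampal neurons were represented in every library, with summed dentate granule cell markers between 586.7 and 957.4 CPM (counts scaled to the adjusted library total). Markers of choroid plexus, the tissue that makes cerebrospinal fluid, summed to 4704, 140.7 and 215.4 CPM in C mice 2, 8 and 12, and to 6741, 96.15 and 101.5 CPM in SS mice 18, 19 and 21. They lay between 1332 and 6192 CPM in SES and between 206.2 and 1465 CPM in SER. Summed nuclear-retained RNAs such as Malat1 went the other way in SS, with 1270 CPM in mouse 18 against 10370 and 11970 CPM in mice 19 and 21. In C they were 1305 to 1714 CPM and in the running groups 2067 to 3949 CPM. Summed oligodendrocyte markers were 3771 and 3608 CPM in SS mice 19 and 21, against 11460 CPM in mouse 18 and 6154 to 10150 CPM in C. In SS against C 3 of 10 dentate granule cell markers were called higher (list median 0.60), and 1 of 8 markers of CA1 and subiculum was called lower (list median -0.37). Also called lower were 2 of 9 endothelial and mural, 1 of 10 oligodendrocyte and 1 of 10 interneuron markers. Of the 6 nuclear-retained RNAs 5 were called higher. Of all genes tested 5.21% were called higher and 4.63% lower. The part of cell types in the SS results was not tested. SS mouse 18 and the other SS mice thus stood apart from each other. In nuclear-retained RNAs mice 19 and 21 lay far above all other mice, while mouse 18 lay just below the C range. Mice 19 and 21 also had the lowest oligodendrocyte sums of the 12 mice. The SS results of the called guidance genes are therefore also given by mouse. Calls in the marker lists and in the pathway lists are given only for the SS group as a whole.

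The promoter sequences shown here belong to the pair of genes that were lower in SS mice, Sema3c and Epha5, and to Sema4f and Sema4g, whose SS values also lay above those of both running groups. Each run is the 250 bases before a RefSeq transcription start of the gene on GRCm38.p6, the build equivalent to mm10. It is written 5′ to 3′ on the gene's strand. The first start listed was used for each gene. For Epha5 and Sema4g that start lies inside the gene span given further below. Their runs therefore lie within the gene and not before its outermost start. Capitals mark the GC box GGGCGG on either strand, the motif bound by Sp1-family factors.

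Sema3c, chr5:17574566-17574815, plus strand: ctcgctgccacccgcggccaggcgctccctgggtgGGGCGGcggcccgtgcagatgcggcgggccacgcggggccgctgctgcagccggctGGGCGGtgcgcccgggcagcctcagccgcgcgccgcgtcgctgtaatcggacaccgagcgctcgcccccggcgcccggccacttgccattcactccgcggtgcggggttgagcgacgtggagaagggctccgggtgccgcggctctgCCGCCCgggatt
Epha5, chr5:84417383-84417632, minus strand: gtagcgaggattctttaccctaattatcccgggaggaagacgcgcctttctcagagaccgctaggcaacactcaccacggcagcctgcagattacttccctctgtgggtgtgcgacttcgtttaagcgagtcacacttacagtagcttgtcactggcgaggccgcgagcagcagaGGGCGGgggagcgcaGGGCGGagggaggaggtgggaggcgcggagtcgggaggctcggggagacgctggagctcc
Sema4f, chr6:82939770-82940019, minus strand: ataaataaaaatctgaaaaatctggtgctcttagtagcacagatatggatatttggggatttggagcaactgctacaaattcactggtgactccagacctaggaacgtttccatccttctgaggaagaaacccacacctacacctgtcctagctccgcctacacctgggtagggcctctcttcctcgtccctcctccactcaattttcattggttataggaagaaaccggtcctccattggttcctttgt
Sema4g, chr19:44989094-44989343, plus strand: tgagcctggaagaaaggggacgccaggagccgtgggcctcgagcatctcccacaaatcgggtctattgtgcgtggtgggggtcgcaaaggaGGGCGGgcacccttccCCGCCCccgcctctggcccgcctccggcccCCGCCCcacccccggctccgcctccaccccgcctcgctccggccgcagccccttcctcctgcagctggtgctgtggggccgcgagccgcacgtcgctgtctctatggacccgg

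The Sema3c promoter had 78.4% GC, 39 CpG dinucleotides and 3 GC boxes, and that of Epha5 had 62.4% GC, 20 CpG and 2 GC boxes. The Sema4f promoter stood apart from the others, with 46.0% GC, 4 CpG and 0 GC boxes, whereas Sema4g had 73.2% GC, 24 CpG and 3 GC boxes. The direction in SS therefore did not follow the GC content of these 4 promoters. RefSeq entries matched 58 of the 68 genes, with 74 promoters. A GC box was present in 70.3% of these, against 32.7% of all 32851 mouse promoters of that length in the table, which include those of predicted genes. The TATA box TATAAA was present in 2.7% against 12.4%, on either strand. The glucocorticoid receptor half-site AGAACA was present in 9.46% against 16.1%, the cyclic AMP response half-site TGACG in 9.46% against 17.8%, and the E-box CACGTG in 5.41% against 6.02%. None of these 4 other motifs occurred in the sequences shown. A match to such letters is a description of the window and not a measured binding site. The 74 promoters had a median of 64.4% GC and 15 CpG, against 52.4% and 6 over all 32851. The part of this difference in the motif shares was not tested.

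Levels were compared between genes as CPM per kilobase of transcript, in the C mice. Efnb3, a transmembrane ephrin, was first with 41.0 ± 8.96 CPM per kb (SD, n = 3). Epha4, a receptor for ephrins of both classes, followed with 38.7 ± 9.58, and Nrp1, the co-receptor for Sema3a, with 31.0 ± 5.78. Efnb3 and Epha4 differed by less than either SD, and Epha4 and Nrp1 by less than the SD of Epha4 but more than that of Nrp1. Sema6b, Sema7a and Unc5a came next with 28.9 ± 2.14, 27.9 ± 2.84 and 24.7 ± 2.20 CPM per kb, and the first of these did not differ from the second beyond the SD. Slit1 ranked 9th of the 68 genes with 14.3 ± 2.77 and Epha5 11th with 11.1 ± 0.272. At the bottom were Robo3 with 0.388 ± 0.0525, Efna4 with 0.365 and Epha2 with 0.258 CPM per kb.

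Within families the levels spread widely. Among the secreted semaphorins, Sema3c had 5.76 ± 0.828 CPM per kb in C, whereas Sema3a had 1.16 ± 0.403 and Sema3f 0.885 ± 0.0768. Among the Slits, Slit1 lay above Slit3, with 5.25 ± 1.05, and Slit2, with 3.64 ± 0.563. Ntn1, the classical netrin, was low at 1.48 ± 0.260 CPM per kb. Its receptors Dcc and Unc5c were at 4.21 ± 0.338 and 5.71 ± 0.736.

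**Figure D1:**
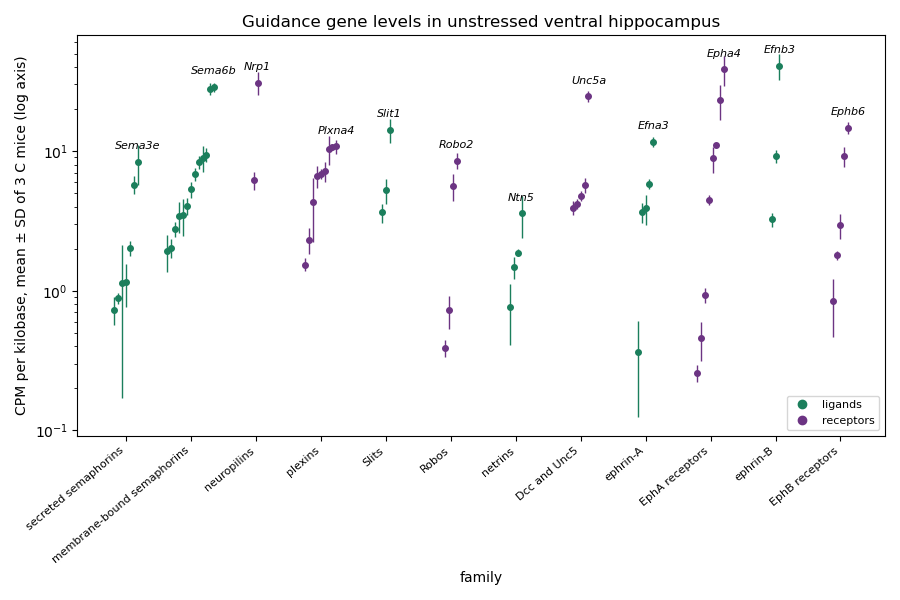
Level of each of the 68 guidance genes in the C mice in CPM per kilobase of transcript on a log axis, grouped by family, with points for the mean of 3 mice, bars for the SD, and ligands and receptors in separate colours. The highest gene of each family is named, and Efnb3, Epha4 and Nrp1 are at the top.

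The first comparison asked how guidance genes differed between stress-susceptible sedentary mice and unstressed controls. In SS mice 9 of the 68 genes rose and 2 fell. The genes that rose were the ligands Slit1, Slit3, Sema4b, Sema4f and Sema4g and the receptors Plxna4, Plxnb2, Unc5a and Epha10. The genes that fell were the secreted ligand Sema3c and the receptor Epha5. These 11 genes were 16.2% of the 68, against 9.83% of all 14541 genes tested (edgeR's quasi-likelihood test, Benjamini-Hochberg adjusted p under 0.05). Calls of higher genes were 5.21% and calls of lower genes 4.63% of all genes. The log2 difference was above 0 in 44 guidance genes and below 0 in 24, with a median of 0.18 against 0.02 over all genes. That median was -0.08 after a correction for GC content and length (-0.03 over all genes), 0.06 with Malat1 as a covariate and 0.05 when mouse 18 alone stood for SS. SS and C values did not overlap for 18 guidance genes, 26.5% of them, close to the 26.9% of all genes. An unadjusted p under 0.05 was found for 28 (41.2%), against 28.2% of all genes.

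**Figure D2:**
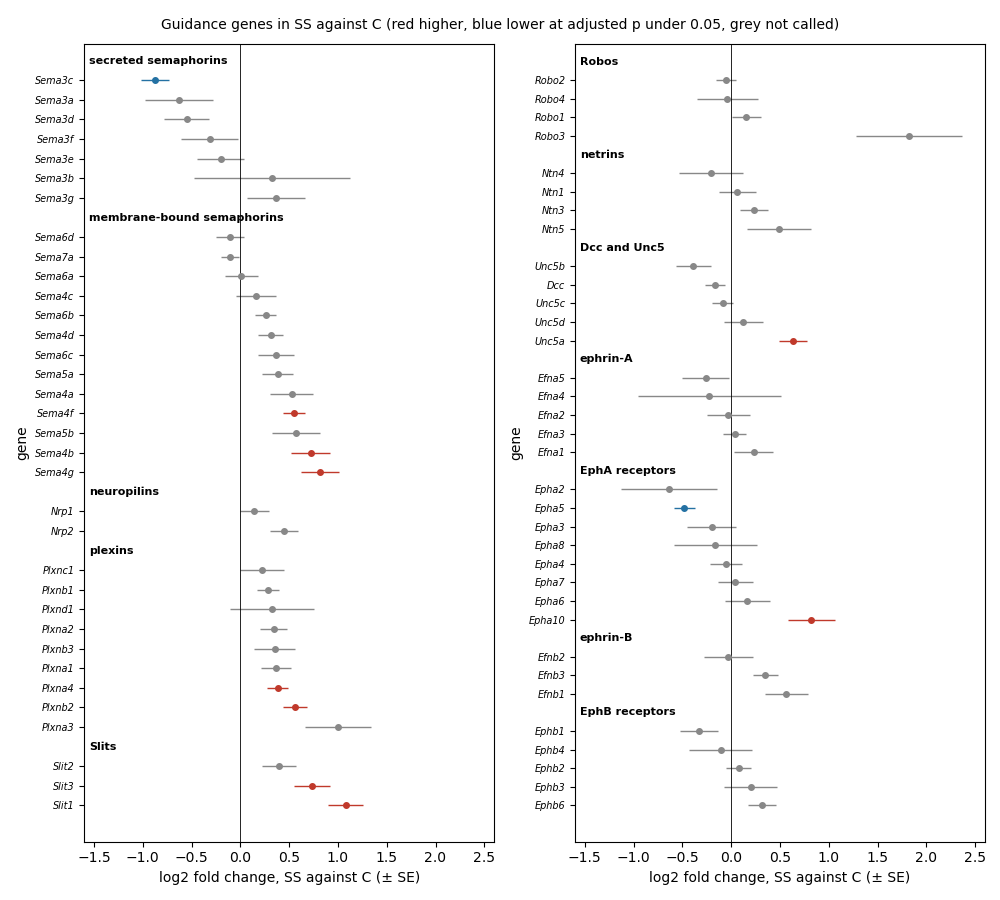
Log2 fold change of SS against C for each of the 68 guidance genes with its standard error, grouped by family, with genes that rose in red, genes that fell in blue and genes not called in grey. All 9 plexins and all 3 Slits lie above 0, and 5 of the 7 secreted semaphorins lie below 0. These are differences of the SS group as a whole and not of each SS mouse.

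Of the 3 Slits, the secreted ligands of Robo receptors, 2 rose and all 3 had a positive difference. Slit1 (chromosome 19, 41597824 to 41747275) measured 84.2, 56.7 and 75.2 CPM in C mice 2, 8 and 12. In SS it measured 110.7 CPM (mouse 18), 184 CPM (mouse 19) and 161 CPM (mouse 21). The lowest SS mouse lay above the highest C mouse. Its log2 difference was 1.08 ± 0.18 (SE), a 2.11-fold rise (edgeR adjusted p = 0.0223). Slit3 (chromosome 11, 35121456 to 35708507) was at 33.6, 22.9 and 25.9 CPM in C and at 34.3, 54.5 and 47.6 CPM in SS. SS mouse 18 lay just above the highest C mouse, and the difference was 0.73 ± 0.18 (edgeR adjusted p = 0.0288). Slit2 was at 33.1, 24.3 and 30.3 CPM in C and at 33.3, 42.2 and 39.6 CPM in SS and did not pass (0.40 ± 0.18, edgeR adjusted p = 0.164). The Robo family had 0 of 4 genes called. Robo3, singled out after its values were seen, had the largest difference of the 68 genes and missed the threshold (1.82 ± 0.55, edgeR adjusted p = 0.0510), with 1.71 to 2.15 CPM in C and 1.62, 7.45 and 10.5 CPM in SS. It was called by DESeq2 (adjusted p = 0.0104), with no filter and with a choroid plexus covariate. Robo1 was at 51.3, 33.3 and 42.9 CPM in C and at 55.5, 45.6 and 40.6 CPM in SS, so the groups overlapped (0.15 ± 0.15).

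The 13 membrane-bound semaphorins, which include transmembrane proteins and the lipid-anchored Sema7a, held 3 genes that rose, with 11 of 13 differences above 0 and a family median of 0.36. Of those 11, Sema4a, Sema4c and Sema5b lay below the C mean in SS mouse 18 (-0.069, -0.33 and -0.02). Sema4f (chromosome 6, 82911884 to 82939769) was at 36.7, 30.1 and 35.2 CPM in C and at 43.2, 54.6 and 51.2 CPM in SS. The groups did not overlap, and the difference was 0.55 ± 0.11 (edgeR adjusted p = 0.0226). Sema4g (chromosome 19, 44988743 to 45003397) was at 13.1, 10.8 and 13.7 CPM in C and at 14.6, 24.7 and 26.8 CPM in SS (0.82 ± 0.19, edgeR adjusted p = 0.0280). Sema4b (chromosome 7, 80186870 to 80226646) was at 18.1, 13.7 and 16.1 CPM in C and at 18.2, 28.2 and 32.2 CPM in SS (0.72 ± 0.20, edgeR adjusted p = 0.0388). For both of these genes SS mouse 18 lay less than 1 CPM above the highest C mouse, and the other SS mice lay well above it. The largest differences below 0 in this family were those of Sema6d and Sema7a, at -0.11 each, and neither passed.

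The 7 secreted semaphorins went the other way on balance, with 5 of 7 differences below 0 and a family median of -0.31. Of those 5, Sema3d, Sema3e and Sema3f lay above the C mean in SS mouse 18 (0.019, 0.338 and 0.147). Sema3c (chromosome 5, 17574816 to 17730268), which repels or attracts axons depending on the neuron, was at 34.9, 33.6 and 26.5 CPM in C. It was at 17.4, 17.9 and 16.6 CPM in SS, a narrow range well below every C mouse. It fell by 0.87 ± 0.14 on the log2 scale, to 0.547 of the C level (edgeR adjusted p = 0.0223). Sema3a, which collapses growth cones through Nrp1 and Plxna4, was at 5.80, 9.63 and 5.24 CPM in C and at 2.63, 5.49 and 5.18 CPM in SS. Its groups overlapped, and the difference of -0.63 ± 0.35 did not pass (edgeR adjusted p = 0.258).

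All 9 plexins, the signalling receptors for semaphorins, had a positive difference, from 0.22 to 1.00 with a median of 0.35, and 2 of them rose. SS mice 19 and 21 lay above the C mean in all 9. SS mouse 18 lay below it in Plxna2 (-0.058), Plxna3 (-0.5), Plxnc1 (-0.355) and Plxnd1 (-1.176). Plxnb2 (chromosome 15, 89155546 to 89182018), a receptor for class 4 semaphorins, was at 55.0, 44.6 and 40.5 CPM in C and at 69.7, 64.1 and 72.8 CPM in SS. Here SS mouse 18 was as high as the other SS mice, and the difference was 0.56 ± 0.13 (edgeR adjusted p = 0.0248). Plxna4 (chromosome 6, 32144543 to 32588192), a partner of neuropilins, was at 155, 123 and 140.2 CPM in C and at 169, 198 and 179 CPM in SS, again without overlap (0.39 ± 0.11, edgeR adjusted p = 0.0412). The neuropilins had 0 of 2 genes called. Nrp2, which binds Sema3c and Sema3f, was at 41.2, 33.1 and 44.0 CPM in C and at 47.1, 57.4 and 56.4 CPM in SS and missed the threshold (0.45 ± 0.14, edgeR adjusted p = 0.0595). Nrp1 was at 107.8, 92.7 and 134 CPM in C and at 127, 110.0 and 131 CPM in SS, with overlap (0.14 ± 0.15).

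Netrins had 0 of 4 genes called, and Ntn1 was at 9.45, 9.28 and 6.79 CPM in C and at 8.19, 8.78 and 9.68 CPM in SS. Among Dcc and the 4 Unc5 genes 1 rose. Unc5a (chromosome 13, 54945151 to 55006018), a repulsive netrin receptor, was at 105, 88.4 and 102 CPM in C and at 112, 172 and 174 CPM in SS. The groups did not overlap (0.63 ± 0.14, edgeR adjusted p = 0.0259). Dcc was at 45.7, 39.5 and 45.3 CPM in C and at 38.8, 38.4 and 39.0 CPM in SS, and Unc5c at 57.5, 44.7 and 54.6 CPM in C and 51.8, 50.9 and 44.9 CPM in SS. Dcc values in SS lay just below every C value and Unc5c values overlapped, and neither passed (-0.17 ± 0.10 and -0.09 ± 0.11).

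Ephrins had 0 of 8 genes called. Efnb3 was at 138, 99.1 and 155 CPM in C and at 159, 167 and 172 CPM in SS, without overlap, and did not pass (0.35 ± 0.13, edgeR adjusted p = 0.0951). Of the 8 EphA receptors 1 fell and 1 rose. Epha5 (chromosome 5, 84054761 to 84417818), a receptor for ephrin-A ligands, was at 79.8, 80.1 and 83.4 CPM in C and at 62.9, 60.1 and 51.6 CPM in SS. It fell by 0.48 ± 0.11 on the log2 scale (edgeR adjusted p = 0.0268), with every SS mouse below every C mouse. Epha10 (chromosome 4, 124881530 to 124917801), which lacks kinase activity, was at 22.0, 21.3 and 18.8 CPM in C and at 21.9, 40.9 and 46.4 CPM in SS. Its groups overlapped because SS mouse 18 lay within the C range, and it passed narrowly (0.82 ± 0.24, edgeR adjusted p = 0.0482). Epha4 was at 287, 175 and 272 CPM in C and at 279.8, 229.9 and 199 CPM in SS, a complete overlap. The EphB receptors had 0 of 5 genes called, and Ephb2 was at 16.3, 16.5 and 18.6 CPM in C and at 18.4, 18.4 and 17.3 CPM in SS.

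**Figure D3:**
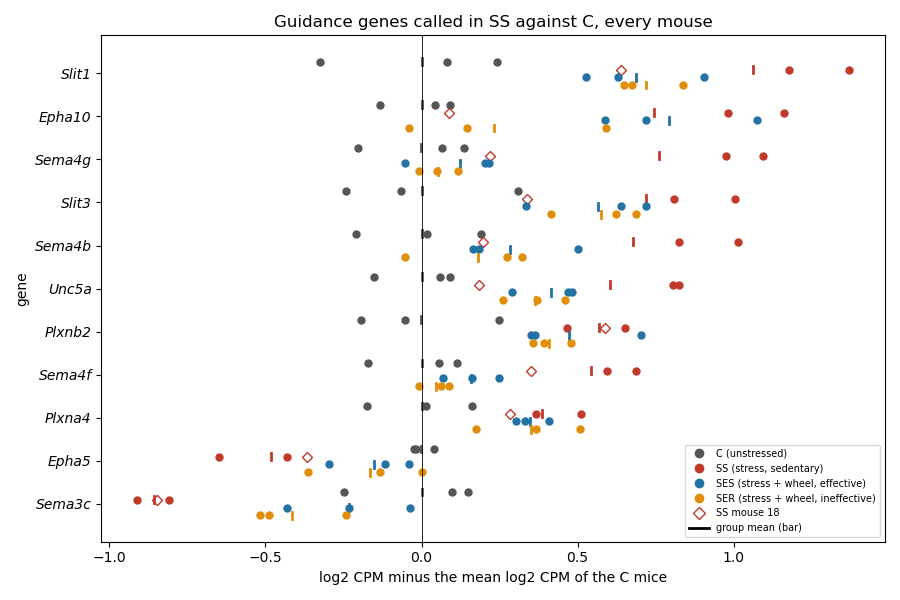
Log2 CPM minus the mean log2 CPM of the C mice for the 11 guidance genes called between SS and C, with 1 point per mouse for all 12 mice, a bar for each group mean and an open diamond for SS mouse 18. In Sema3c all SS mice lie below all other mice, and in Slit1 all stress-exposed mice lie above all C mice.

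The SS mice were not alike in these genes. Over the 9 genes that rose, the median log2 difference from the C mean was 0.28 in SS mouse 18 and 0.83 and 0.82 in mice 19 and 21. SS mouse 18 was above every C mouse in 8 of the 9 genes, and the exception was Epha10. For the pair that fell, the 3 mice were close to each other, at -0.61, -0.62 and -0.78. Over all 68 genes SS mouse 18 was above every C mouse in 23, within the C range in 28 and below it in 17, whereas mice 19 and 21 were each above it in 35. Some genes that were not called split the SS mice further and were picked after their values were seen. Robo3, a Robo receptor with commissural functions, measured 1.62 CPM in mouse 18 but 7.45 CPM in mouse 19 and 10.5 CPM in mouse 21. Plxna3 was at 7.48, 28.8 and 27.6 CPM in the same order, against 9.62 to 11.9 CPM in C. In both genes mouse 18 lay below all C mice while the other SS mice lay above them. The summed nuclear RNAs split the SS mice the same way, at 1270 CPM against 10370 and 11970 CPM.

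**Figure D4:**
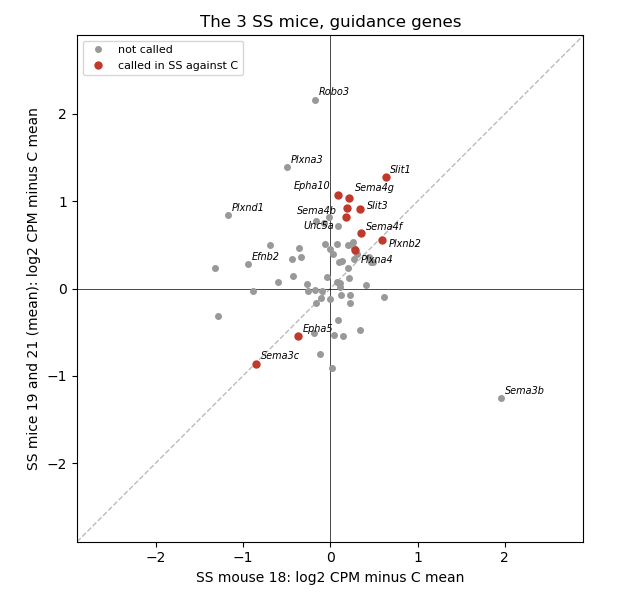
Log2 CPM minus the C mean for the 68 guidance genes, in SS mouse 18 on the x axis and as the mean of SS mice 19 and 21 on the y axis, with the 11 called genes in red and a dashed line where both are equal. Most genes that rose lie above the line, Sema3c and Epha5 lie near it, and Robo3, Plxna3 and Sema3b have opposite signs on the 2 axes.

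The SS calls rested on which mice were included. Without SS mouse 18, 23 guidance genes (33.8%) were called, against 25.7% of all genes. Without C mouse 8, SS mouse 19 or SS mouse 21 the number was 0, and 0 of all genes were called either. It was 2 without C mouse 12, with 78 of all genes called, and 8 without C mouse 2, with 848 of all genes. When mouse 18 alone stood for SS, Slit1 was at 0.62 and Sema3c at -0.87. With neither C mouse 2 nor SS mouse 18, 25 guidance genes were called (36.8%, against 24.8% of all genes). Both of these fits were chosen after seeing the data. A fit of C and SS alone, a fit with Malat1 as a covariate and a fit corrected for GC content and length each called 0 of all genes, so their counts of 0 are not particular to the guidance genes. In the fit of C and SS alone the differences were nearly as before, with Slit1 at 1.08, Sema3c at -0.87 and Plxnb2 at 0.56 (edgeR adjusted p = 0.105 for each). With the Malat1 covariate Sema3c was at -0.78 and Plxnb2 at 0.54, while Slit1 was at 0.52, Unc5a at 0.14, Sema4g at 0.16, Sema4b at 0.10 and Epha10 at 0.09. The genes that rose had transcripts of 51.6% to 62.7% GC and those that fell 40.1% and 42.7%, against a median of 50.5% over all genes tested. Of the 46 guidance genes with at least 50% GC, 34 had a positive difference, with a median of 0.31. Of the 22 below 50% GC, 10 did, with a median of -0.05. Over all genes tested, the medians on the same sides were 0.12 and -0.10. After the GC and length correction the difference was -0.83 for Sema3c and -0.46 for Epha5, close to the values before it. It was lower for the genes that had risen, at 0.70 for Slit1, 0.49 for Sema4g, 0.45 for Sema4b, 0.44 for Epha10, 0.41 for Slit3, 0.26 for Sema4f, 0.25 for Unc5a, 0.19 for Plxnb2 and -0.006 for Plxna4.

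**Figure D5:**
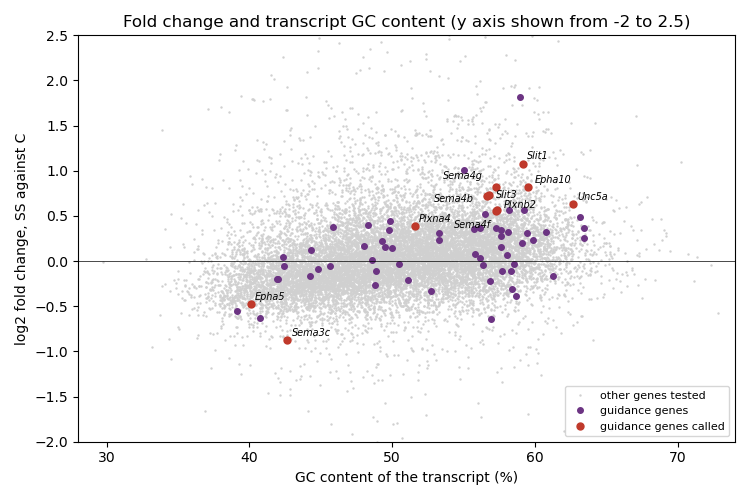
Log2 fold change of SS against C on the y axis, shown from -2 to 2.5, against transcript GC content in percent for the guidance genes (purple, called genes in red and named) and the other genes tested (grey). The 9 genes that rose lie above 50% GC and the pair that fell lies below 45%.

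The next comparisons set the running groups against SS. They asked which stress-related values differed in mice that responded to running and in mice that did not. In SES against SS 0 of the 68 guidance genes passed, with 0% of all genes called, and 15 (22.1%) had an unadjusted p under 0.05 against 9.01% of all genes (edgeR, and 0 called by DESeq2 as well). SES and SS values did not overlap for 12 genes (17.6%) against 12.2% of all genes. In SER against SS 0 passed, with 0.0481% of all genes called, and 15 (22.1%) had an unadjusted p under 0.05 against 18.2%, while 9 (13.2%) did not overlap against 16.9%. DESeq2 called 2 genes there (2.94%), Sema4f and Sema4g, against 3.7% of all genes. Both comparisons use the same 3 SS mice, so their values are not independent of each other or of the SS and C difference.

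The genes with the smallest p in both comparisons were Sema3c, Sema4f and Sema4g. Sema3c was at 30.6, 26.7 and 23.3 CPM in SES mice 9, 10 and 12 and at 26.6, 22.4 and 21.9 CPM in SER mice 6, 19 and 20. All 6 running mice lay above the SS range of 16.6 to 17.9 CPM, by 0.64 ± 0.14 in SES (edgeR adjusted p = 0.524) and 0.45 ± 0.14 in SER (edgeR adjusted p = 0.142). Sema4f was at 35.5, 40.2 and 37.9 CPM in SES and at 33.7, 35.3 and 36.0 CPM in SER. All 6 lay below the lowest SS mouse, with differences of -0.39 ± 0.11 (edgeR adjusted p = 0.524) and -0.51 ± 0.11 (edgeR adjusted p = 0.0937). Sema4g was at 14.4, 12.1 and 14.5 CPM in SES and at 12.9, 13.6 and 12.4 CPM in SER, again all below SS, where the lowest mouse, 18, had 14.6 CPM and lay next to the highest SES mouse. Its differences were -0.69 ± 0.19 (edgeR adjusted p = 0.524) and -0.77 ± 0.19 (edgeR adjusted p = 0.110). These values are those of genes already apart between SS and C, where the same SS mice were used. By family, 12 of the 13 membrane-bound semaphorins had a negative difference in each of the 2 comparisons, with medians of -0.23 in SES and -0.20 in SER. Without SS mouse 18, 11 guidance genes (16.2%) were called in SES against SS, against 8.69% of all genes, and 14 (20.6%) in SER against SS, against 16.5%.

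SES against SER asked what separated effective from ineffective responders. Of the 68 guidance genes 0 passed, with 0.0275% of all genes called, and 3 (4.41%) had an unadjusted p under 0.05 against 3.72% of all genes (edgeR, and 0 called by DESeq2). Values did not overlap for 7 genes (10.3%) against 10.8%. The 3 genes with an unadjusted p under 0.05 were Sema3f, Dcc and Epha10. Sema3f, a secreted repellent that acts through Nrp2, was at 2.96, 3.55 and 2.11 CPM in SES and at 1.26, 1.12 and 1.53 CPM in SER, from 28 to 53 and from 13 to 16 counts. The SER mice were the lowest of all 12 mice, since C lay between 2.71 and 3.21 CPM and SS between 1.96 and 3.34 CPM. The difference was 1.15 ± 0.31 and did not pass (edgeR adjusted p = 0.9997). Dcc was at 32.4, 31.1 and 32.6 CPM in SES and at 33.7, 42.4 and 37.9 CPM in SER. The SES mice were the lowest of the 12 mice, by 0.24 ± 0.10 against SER. Epha10 was at 34.0, 43.6 and 31.1 CPM in SES and at 31.1, 22.9 and 20.1 CPM in SER, with the groups meeting at their edges (0.55 ± 0.24).

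Against unstressed controls, each running group had 0 guidance genes called. In SES against C 0.179% of all genes were called, and in SER against C 1.19% were. An unadjusted p under 0.05 was found for 10 guidance genes (14.7%) in SES and 12 (17.6%) in SER, against 16.2% and 18.6% of all genes. Values did not overlap with C for 14 genes (20.6%) in each, against 26% and 25.3% of all genes. DESeq2 called 5 in SES (7.35%, against 2.83% of all genes), which were Dcc, Epha10, Plxnb2, Slit1 and Unc5b. It called 6 in SER (8.82%, against 5.2% of all genes), which were Epha6, Plxna4, Plxnb1, Sema3f, Slit1 and Slit3. The 2 comparisons share the C mice with each other and with SS against C.

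Slit1 was at 110.1, 103 and 133 CPM in SES and at 127, 113 and 112 CPM in SER. Every running mouse lay above the C range of 56.7 to 84.2 CPM, by 0.68 ± 0.18 in SES (edgeR adjusted p = 0.127) and 0.71 ± 0.18 in SER (edgeR adjusted p = 0.0730). Plxnb2 was at 59.1, 75.5 and 59.6 CPM in SES, above the highest C mouse at 55.0 CPM (0.47 ± 0.13, edgeR adjusted p = 0.130). Dcc in SES lay below every C mouse by -0.44 ± 0.10 (edgeR adjusted p = 0.120). In SER, Sema3f lay below every C mouse by -1.21 ± 0.31 (edgeR adjusted p = 0.0755). Epha6, a receptor for ephrin-A ligands, was at 71.5, 50.3 and 65.1 CPM in SER and at 42.7, 27.9 and 33.8 CPM in C, without overlap (0.84 ± 0.23, edgeR adjusted p = 0.0870).

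In 5 genes, Plxna4, Plxnb2, Slit1, Slit3 and Unc5a, every one of the 9 stress-exposed mice lay above every C mouse. That was 7.35% of the guidance genes, against 3.64% of all genes tested, and 0 guidance genes lay below C in all 9, against 5.1% of all genes. All 5 had been called between SS and C, which uses the same C mice. For Unc5a the exposed mice ran from 112 to 174 CPM against 88.4 to 105 CPM in C. For Slit3 the lowest exposed mouse, at 34.2 CPM, was close to C mouse 2, at 33.6 CPM, and for Plxna4 the corresponding values were 157 and 155 CPM. Sema4f, Sema4g and Sema4b did not follow this pattern, because their SES and SER values overlapped those of C. The 5 genes belonged to the plexins, the Slits and the Dcc and Unc5 family, and no other family had a gene in the set.

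Among the remaining always-described genes the running groups stayed within or near the range of the other mice. Slit2 was at 32.3, 22.0 and 33.4 CPM in SES and at 28.6, 37.7 and 38.5 CPM in SER, and Sema3a at 6.17, 9.91 and 6.33 CPM and at 4.97, 4.64 and 8.95 CPM. Efnb3 was at 136, 123 and 136 CPM in SES and 131, 139 and 129.6 CPM in SER, below the SS mice and within the C range. Nrp2 was at 42.6, 36.4 and 48.4 CPM in SES and 48.0, 53.5 and 42.8 CPM in SER. Over the 6 running mice Epha4 ranged from 221 to 270.0 CPM, inside the C range, and Nrp1 from 99.4 to 134 CPM, with its highest value level with the highest C mouse. Robo1 ranged from 45.2 to 53.6 CPM, Unc5c from 43.4 to 51.2 CPM, Ntn1 from 6.55 to 9.19 CPM and Ephb2 from 15.2 to 18.8 CPM.

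Downstream genes of the same pathways were counted as 50 intracellular effectors, among them cytoskeletal kinases, and 30 other cues and receptors such as adhesion molecules, planar polarity genes and a receptor phosphatase. In SS against C 8 of the 50 effectors rose and 2 fell, with a list median of 0.04. Of all genes tested 5.21% were called higher and 4.63% lower. Mical3, a flavoprotein enzyme that disassembles actin downstream of plexins, rose by 0.62 (edgeR adjusted p = 0.0244), and Trio, an exchange factor downstream of Dcc, by 0.52 (edgeR adjusted p = 0.0246). Pak3, a kinase activated by Rac and Cdc42, fell by 0.37 on the log2 scale (edgeR adjusted p = 0.0285). Of the 30 other cues and receptors 4 rose and 0 fell, with a list median of 0.13. They were Ptprs, a receptor phosphatase for proteoglycans (0.59, edgeR adjusted p = 0.0226), the atypical cadherin Celsr3 (1.91, edgeR adjusted p = 0.0247), the immunoglobulin-family adhesion molecule Dscaml1 (0.53, edgeR adjusted p = 0.0333), and Vangl2, a planar polarity gene (0.92). In SER against C 1 of the 50 effectors rose, with 1.19% of all genes called. It was Farp1, an exchange factor that binds plexins (0.69, edgeR adjusted p = 0.0447). The other 4 comparisons had 0 calls in either list. The SS calls in both lists are given for the SS group only and not by mouse. Fits of C and SS alone, with a Malat1 covariate, with the GC and length correction or without SS mouse 19 or 21 called 0 of all genes, these included.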

How the data were processed

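The 68 genes, the pathway lists and the tests were chosen with earlier results of these data known. The authors deposited estimated counts, whole numbers for 33299 transcripts per mouse. TopHat and mm10 were used per the submitters' processing notes, libraries were made with a directional kit per the labels' protocols, and the sources used here do not name the counting program, strand setting or annotation. Overlapping or antisense genes may therefore share reads. Counts were summed per symbol (23 of the 68 genes had more than 1 transcript), filtered with filterByExpr (minimum count 10, 14541 genes left) and scaled with TMM factors of 0.97 to 1.039. Groups were compared with the quasi-likelihood F test of edgeR 4.0.16 in R 4.3.3, fitted once to the 12 libraries (8 residual degrees of freedom), with Benjamini-Hochberg adjustment over every gene tested. The biological coefficient of variation was 15.7%. DESeq2 1.42.0 and limma 3.58.1 were used as alternatives. The procedure was tested on simulated data. CPM use TMM-scaled totals, and errors of log2 differences are standard errors. Lengths and GC content came from GENCODE M21 transcripts (GRCm38, the sequence of mm10). Gene positions, counted from 1, and promoters came from RefSeq. Precision is limited by 3 mice per group and, for genes with few counts, by counting error. Genes were named in full if called (the 12 with the smallest p), or else the 3 with the smallest p in a comparison, plus 14 always named.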

Additional observations from a re-analysis of the deposited data

How the results depend on the processing

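No paired analysis was possible because the labels number the mice, and any pair of groups shares at most 1 number. Against the 11 genes called in SS against C, DESeq2 size factors, upper-quartile factors and the stricter filter gave 11, no filter 12, limma-voom 10, DESeq2 14 and a choroid plexus covariate 13. The number was 0 with C and SS alone, with a Malat1 covariate and with the GC and length correction, which each called 0 of all genes. With transcripts as deposited it was also 0, where 2 of all 20402 transcripts were called. It was 25 with neither C mouse 2 nor SS mouse 18, with 3644 of 14723 genes called. This setting and that of mouse 18 alone were chosen after seeing the data. Calls over all genes also changed between settings, from 1430 of 14541 in the main fit. DESeq2 called 2219, the choroid plexus covariate 1989 and limma-voom 1209 of the same number. DESeq2 size factors gave 1447, upper-quartile factors 1438, the stricter filter 1452 of 14270 and no filter 1354 of 19164. Leaving out 1 mouse gave 0 to 23 guidance genes. With neither C mouse 2 nor SS mouse 18, 12 guidance genes were called in SES against SS and 14 in SER against SS. In the same fit 8 were called in SES against C and 9 in SER against C. Of all 14723 genes tested, that fit called 1430, 2573, 929 and 796 in the same order. Leaving out 1 mouse gave 0 to 11 guidance genes in SES against SS and 0 to 14 in SER against SS. DESeq2 called 2 in SER against SS, 5 in SES against C and 6 in SER against C. Of all 14541 genes it called 538, 411 and 756 in the same order. In SER against C, no filter called 1 (Slit1), with 208 of 19164 genes called. The choroid plexus covariate and the fit of the 2 groups alone each called 2 there (Epha6 and Slit1). Over all genes they called 393 of 14541 and 281 of 14106. In SES against C the fit of the 2 groups called 1 (Epha10), with 160 of 14348 genes called. In SES against SER every setting called 0.

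Of 654 values of named genes under the alternatives, 522 kept direction and side of the threshold, 89 no longer passed, 31 newly passed and 12 changed sign. In SS against C the GC and length correction turned Plxna4 to -0.006, Ntn1 to -0.299, Robo1 to -0.077 and Ephb2 to -0.340. Leaving out 1 mouse gave Ntn1 from -0.071 to 0.138, negative without C mouse 12 (-0.071) and SS mouse 21 (-0.002), and mouse 18 alone gave -0.058. It gave Epha4 from -0.246 to 0.072, positive without C mouse 2 (0.072), C mouse 12 (0.035) and SS mouse 21 (0.058). Epha4 was 0.048 with the Malat1 covariate and 0.190 with mouse 18 alone. Of these genes only Plxna4 was called in SS against C, and the cause of the other changes was not tested. Genes with few counts, such as Sema3f and Robo3, are limited by depth.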

Other observations

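Sema3b, a secreted semaphorin, varied more between mice of a group than between groups. It was at 6.64 CPM in C mouse 2 and at 1.07 and 2.49 CPM in C mice 8 and 12, and at 10.7 CPM in SS mouse 18 and 0.706 and 1.44 CPM in SS mice 19 and 21. In SES it was at 4.41, 8.37 and 4.82 CPM, and in SER at 2.68, 4.13 and 2.07 CPM. The libraries with the most choroid plexus marker RNA in C, SS and SES (4704, 6741 and 6192 CPM) were those with the highest Sema3b in their groups, and the same held in SER (1465 CPM). The part of that tissue in the values was not tested.

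The division of counts among transcripts was uneven for some guidance genes whose sums were even. For Slit2, 1 transcript had 431 counts in SS mouse 21 and 0 or 1 in the other 11 mice, whereas another had 3 counts in that mouse and 221 to 482 in the others. For Plxnb2, 1 transcript ranged from 0 to 508 counts over the 12 mice, with 291, 39 and 223 in C and 1, 3 and 0 in SS. The sum per symbol did not follow these swings, with Slit2 at 39.6 CPM in SS mouse 21 against 42.2 CPM in SS mouse 19.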
